A study of Homo sapiens with 4 samples.

Results

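HOXA2, HOXB2 and HOXB3, the anterior HOX genes of paralog groups 2 and 3, were followed across the ATOH1-TRAP libraries of human pluripotent stem cell (hPSC)-derived cultures at DIV28. The genes were chosen by name, with earlier results of these data known. They are 3 of the 492 genes whose transcripts could be tied to a gene symbol. The cells were of the human embryonic stem cell line RUES2 and carried the ATOH1-EGFP-L10a transgene, in which a lentiviral human ATOH1 enhancer drives an EGFP-tagged L10a ribosomal protein. Clonal lines were selected for the transgene, and which clone gave these libraries is not given in the sources used here. The study's differentiation protocol used transwell membranes and N2/B27 medium with puromycin. It added SB431542 and LDN-193189 for dual SMAD inhibition, and CHIR99021, FGF2, BMP7 and BDNF, over partly overlapping days. Which culture gave the input library is not given in the sources used here. The 3 IP libraries hold ribosome-attached mRNA pulled down with GFP antibodies from independent differentiation experiments, and the 1 input library, which a legend of the study also calls unbound, is their only reference.

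HOX genes encode homeodomain transcription factors that lie in 4 clusters and give cells their position along the head-to-tail axis. Genes at one end of a cluster, such as those of groups 2 and 3, reach farthest forward, into the hindbrain, and genes at the other end mark the spinal cord. In mice Hoxa2 is the only Hox gene active in the second rhombomere, Hoxb2 reaches its front limit just behind that, and Hoxb3 is strongest in the fifth rhombomere. The first rhombomere, from which the cerebellum and its granule cells arise, is free of Hox expression in mice. The study used HOXA2 as a spinal cord-level marker when it set up the differentiation.

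Which library is the input is ambiguous. The input sample's title carries a tag that reappears in the file name of a sample labelled IP. That library is called input here, and the library deposited under the label input is IP 1. Numbers 1 to 3 only name the IPs. ATOH1, the gene whose enhancer drives the tag, was at 37.8, 50.6 and 44.1 TPM in IP 1, IP 2 and IP 3, against 0.304 TPM in the input. With the labels' assignment it was at 31.7 ± 27.4 TPM in the libraries labelled IP (SD, n = 3), against 37.8 TPM in the library labelled input, a ratio of 0.839. The IPs held 34603230, 36860319 and 37719839 estimated counts, the input 41173019. The correlation of log2 CPM over features above 10 CPM was 0.93 to 0.94 between IPs but 0.69 to 0.70 with the input, which stands apart from the rest. CPM scales counts to library size after TMM normalization, and TPM (transcripts scaled to a fixed total) also divides by length. Features are the tied genes and all other transcripts.

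All 3 genes are read from the minus strand of GRCh37. HOXA2 (ENSG00000105996.7_8) spans chr7:27139973-27142305 in the HOXA cluster. HOXB2 (ENSG00000173917.11_8) spans chr17:46618256-46622471, and HOXB3 (ENSG00000120093.12_9) lies beside it in the HOXB cluster at chr17:46626232-46682274. Each protein binds DNA through a homeodomain, which in HOXA2 and HOXB2 is encoded by 180 bases of the last of 2 coding exons of the longest GENCODE coding sequence. The homeoboxes of HOXA2 and HOXB2, paralogs of the same group, are shown because the homeobox is the part in which HOX genes are most alike. They are printed from GRCh37 in the direction of transcription. The capitals mark the longest run that both share at the same position.
HOXA2: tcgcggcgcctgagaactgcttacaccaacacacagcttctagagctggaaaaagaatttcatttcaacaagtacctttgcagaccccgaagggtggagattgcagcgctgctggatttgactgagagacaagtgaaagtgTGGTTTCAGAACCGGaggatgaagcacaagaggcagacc
HOXB2: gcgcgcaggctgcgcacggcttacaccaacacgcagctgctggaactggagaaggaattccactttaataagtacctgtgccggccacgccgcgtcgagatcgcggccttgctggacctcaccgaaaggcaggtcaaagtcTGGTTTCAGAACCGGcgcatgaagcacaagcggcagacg

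HOXA2 and HOXB2 had the same base at 138 of the 180 positions (76.7%). The run in capitals is 15 bases long, while the reads were 75 bases. The HOXA2 homeobox lies at chr7:27140870-27141049 and that of HOXB2 at chr17:46620895-46621074.

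No 75-base stretch of the GENCODE transcripts of HOXA2, of 2331 in all, was found in a transcript of another gene on either strand. For HOXB2, 14 of 2381 stretches (0.588%) were shared, all with the antisense gene HOXB-AS1. For HOXB3, 544 of 7730 (7.04%) were shared, 184 of them with HOXB-AS1 and 360 with GENCODE transcripts of HOXB6. The library kit did not mark the strand, so reads in those stretches cannot be told apart between the overlapping genes.

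HOXB2 had the highest TPM of the 3 genes in every IP, and HOXA2 had the highest in the input. Both HOXB genes rose in the IPs relative to the input by the test, and HOXA2 did not pass it. HOXB2 and HOXB3 were 7.69 and 9.02 times higher in the IPs in the fit, against 2.21 times for HOXA2. Thus 2 of the 3 genes were called higher in IP at an adjusted p under 0.05, where 1.95% of the 46758 genes and transcripts tested were called in that direction. Genes could be tied only if the study had called them in these data, and of the 492 tied genes 144 (29.3%) were called higher, so the count over the 3 genes is not independent of that selection. The choice of the 3 genes was also made with earlier results of these data known. All 3 passed the filter on low counts.

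HOXA2, the only one of the 3 outside the HOXB cluster, was measured by a single transcript of 1778 bases. It had 2034, 2663 and 2821 reads in IP 1, IP 2 and IP 3, against 1256 in the input. On the scale that corrects for length this was 43.8, 54.1 and 54.1 TPM in the IPs, a mean of 50.7 ± 5.90 (SD, n = 3), against 29.1 TPM in the input. IP 1 was the lowest IP, and all 3 IPs lay above the input. The ratio of TPM in IP to input was 1.51, 1.86 and 1.86. The 95% Poisson interval of the input reads puts the mean ratio of 1.74 between 1.65 and 1.84. That interval covers counting error only, as molecular identifiers were not used and PCR copies count as reads.

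In the fit the log2 fold change of HOXA2 was 1.14 (SE 0.24, adjusted p = 0.0936, edgeR quasi-likelihood), and 75.5% of all features tested had a lower one. The call depended on the tool, since DESeq2 gave 1.09 with an adjusted p of 2.8e-05. Over all its alternatives the adjusted p of HOXA2 ran from 2.8e-05 in DESeq2 to 1.0 in edgeR. The upper end came only from the labels' assignment, which compares other groups of libraries. DESeq2 also called far more genes and transcripts in all than edgeR did. The spread in each fit is that of the libraries in its IP group, because a single input has none of its own.

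HOXB2, a direct target of the segmentation factor EGR2 in the mouse hindbrain, was measured by a single transcript of 1602 bases. It had 4700, 4672 and 4043 reads in the 3 IPs, against 645 in the input. This was 114, 107 and 87.6 TPM in the IPs, a mean of 103 ± 13.9 (SD, n = 3), against 16.9 TPM in the input. IP 3 was the lowest of the IPs and still more than 5 times the input. The ratio of TPM in IP to input was 6.79, 6.35 and 5.19, with a mean of 6.11 that the counting error of the input reads puts between 5.66 and 6.61. Its log2 fold change was 2.94 (SE 0.19, adjusted p = 0.0244, edgeR).

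HOXB3, the next HOX gene of the cluster, was summed over 7 transcripts. It had 1167, 1139 and 965 reads in the 3 IPs, against 134 in the input. Its summed TPM was 15.4, 14.2 and 11.3 in the IPs, a mean of 13.6 ± 2.08 (SD, n = 3), against 1.87 TPM in the input. As for HOXB2, IP 1 was the highest and IP 3 the lowest, and no IP overlapped the input. The ratio of TPM in IP to input was 8.21, 7.598 and 6.06, with a mean of 7.29 and counting limits of 6.15 and 8.70. Its log2 fold change was 3.17 (SE 0.29, adjusted p = 0.0341, edgeR).

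The calls of HOXB2 and HOXB3 were lost in limma-voom, at an adjusted p of 0.072 for each, and with any 1 of the 3 IPs left out. Without IP 1, IP 2 and IP 3 the log2 fold change of HOXB2 was 2.889, 2.904 and 3.001 (adjusted p = 0.172, 0.196 and 0.105, edgeR) and that of HOXB3 was 3.10, 3.13 and 3.24 (adjusted p = 0.172, 0.199 and 0.107, edgeR). No feature at all was called in limma-voom or with 1 IP left out, so those losses were not particular to HOXB2 and HOXB3. With the labels' assignment, in which IP 1 is the input, HOXB2 had 70.5 ± 47.5 TPM in the libraries labelled IP (SD, n = 3) against 114 TPM in the library labelled input, and its log2 fold change turned to -0.65. HOXB3 turned to -0.70 and HOXA2 was at 0.07 under that assignment, and no gene or transcript was called. At an unadjusted p under 0.05, 1320 of them passed with edgeR.

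**Figure D1:**
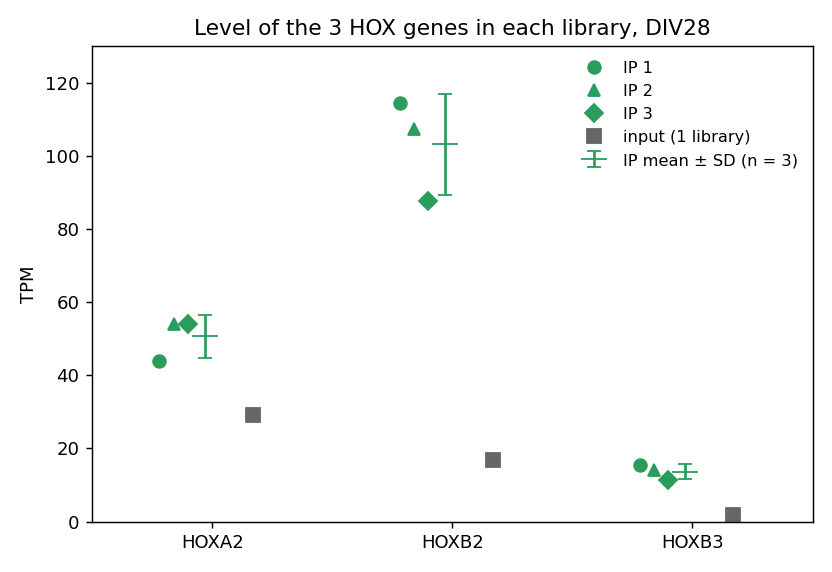
TPM of HOXA2, HOXB2 and HOXB3 in each library at DIV28, on a linear axis from 0. Green symbols are the 3 IPs with their mean ± SD, and the grey square is the single input library. HOXB2 is at 87.6 to 114 TPM in the IPs against 16.9 in the input, while HOXA2 is at 43.8 to 54.1 against 29.1.

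The order of the genes differed between IP and input. In TPM it was HOXB2, HOXA2, HOXB3 in each of the 3 IPs, and HOXA2, HOXB2, HOXB3 in the input. The ranges of the 3 genes over the IPs did not overlap. Ratios between genes within 1 library need no scaling between libraries. HOXB2 was 2.61, 1.98 and 1.62 times HOXA2 in IP 1, IP 2 and IP 3, a mean of 2.07 ± 0.502 (SD, n = 3), and 0.580 times HOXA2 in the input. The exact (Clopper-Pearson) 95% interval of the reads was 1.54 to 1.70 in IP 3, the lowest IP, and 0.527 to 0.639 in the input. The ratio was thus on different sides of 1 in the IPs and the input, beyond counting error.

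The IPs differed among themselves in this ratio beyond counting error as well, since the interval of IP 1 was 2.48 to 2.75. IP 1 had the most HOXB2 and the least HOXA2 of the IPs. HOXB3 followed HOXB2 in this. It was 0.350, 0.263 and 0.209 times HOXA2 in the IPs and 0.0643 times HOXA2 in the input (95% interval 0.0534 to 0.0769).

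The ratio of HOXB2 to HOXB3 was the steadiest of the 3. It was 7.46, 7.55 and 7.73 in the IPs, a mean of 7.58 ± 0.141 (SD, n = 3), and 9.02 in the input. The interval of the input, 7.48 to 11.0, held the values of IP 2 and IP 3 and began just above that of IP 1, so a difference between IP and input was not detectable at the depth of 134 HOXB3 reads. With 3 libraries against 1, an exact permutation test of any of these ratios cannot give a one-sided p below 0.25.

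**Figure D2:**
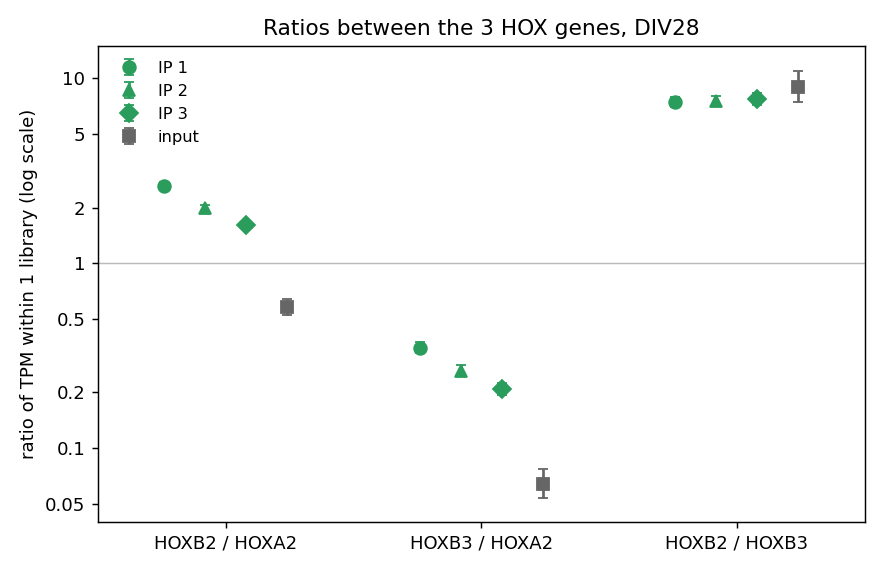
Ratio of TPM between pairs of the 3 genes within each library, on a log axis. Green symbols are the IPs, grey squares the input, and bars are exact 95% intervals of the reads, which cover counting error only. HOXB2 over HOXA2 is 1.62 to 2.61 in the IPs and 0.580 in the input, whereas HOXB2 over HOXB3 is 7.46 to 7.73 in the IPs and 9.02 in the input.

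Most of HOXB3 came from a single transcript. Of the 7 transcripts, 2 had no reads in any library. The transcript uc010wlk.2, of 2676 bases, was at 10.6, 11.2 and 8.03 TPM in the 3 IPs, against 1.42 TPM in the input, and made up 69.1%, 78.6% and 70.9% of the TPM of the gene in the IPs, against 75.7% in the input. Fitted alone, it had a log2 fold change of 3.14 (SE 0.36, adjusted p = 0.0425, edgeR).

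The transcript uc010wlm.2, of 2879 bases, behaved otherwise. It was at 3.95, 1.94 and 2.98 TPM in the IPs, from 316, 165 and 268 estimated reads, and at 0.0001 TPM in the input, from 0.009 reads. Set against a floor of 3 reads in the input library, which is 0.0404 TPM, it was 73.3-fold higher in the IPs on average and 48.2-fold higher in the lowest IP. It made up 25.8%, 13.7% and 26.3% of the TPM of HOXB3 in the IPs. Without it, HOXB3 was at 11.4, 12.3 and 8.34 TPM in the IPs, against 1.87 TPM in the input, a ratio of 5.71. Salmon splits reads between transcripts of a gene by a model, so the part of a single transcript is an estimate. The fold values of uc010wlm.2 against the floor are therefore not lower bounds. The remaining 3 transcripts had at most 0.848 TPM in any library and none was called, with log2 fold changes of 2.09 for uc002inn.3, 0.85 for uc010dbf.3 and -0.89 for uc010dbg.3.

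**Figure D3:**
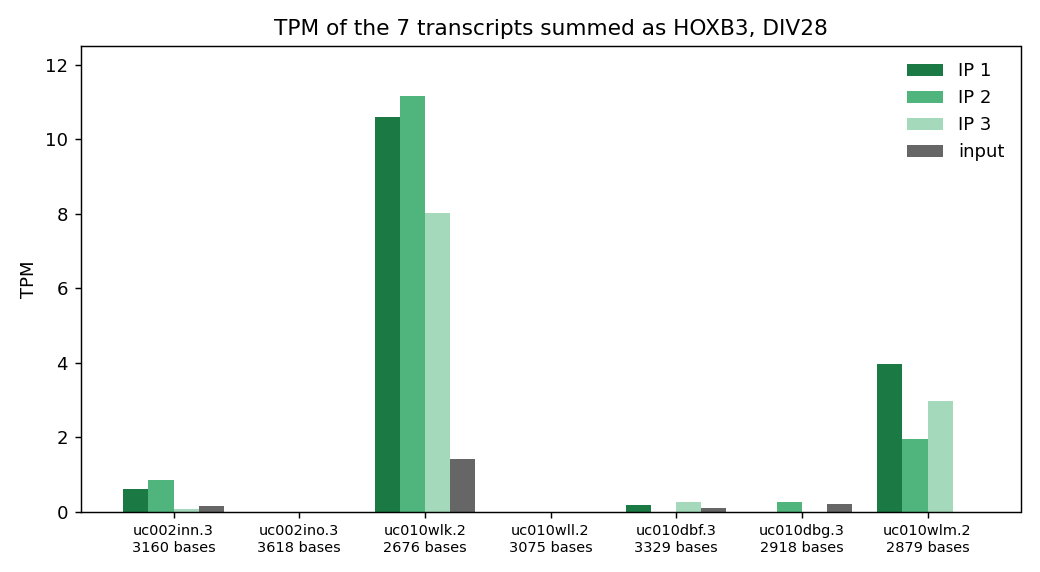
TPM of the 7 transcripts summed as HOXB3, with the length of each below its name. Bars are the 3 IPs in green and the input in grey. The transcript uc010wlk.2 is the highest in every library, and uc010wlm.2 is at 1.94 to 3.95 TPM in the IPs, against 0.0001 TPM in the input.

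The 7 transcripts are those between HOXB2 and HOXB5 whose summed mean count lay within 0.398% of that of HOXB3 in the study's table. Of the runs that matched, this is the one that begins next to HOXB2. Another run, of 6 transcripts, matched more closely, within 0.228%, and gave 1159, 1090 and 1006 reads in the IPs, against 122 in the input. That run was not taken because it adds the last transcript before HOXB5, which lies where GENCODE places HOXB4. It may thus hold reads of another gene. With that run the log2 fold change was 3.30 (SE 0.27, adjusted p = 0.0315, edgeR).

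HOXB-AS1, a non-coding antisense gene on the plus strand at chr17:46620913-46628612, overlaps the ends of both HOXB2 and HOXB3. It had 700, 580 and 486 reads in the IPs, against 85 in the input, which is 42.1, 32.9 and 26.0 TPM in the IPs, against 5.52 TPM in the input. IP 1 was the highest and IP 3 the lowest, as for both HOXB genes. Its log2 fold change of 2.94 was as large as that of HOXB2, with a wider error (SE 0.45, adjusted p = 0.0569, edgeR). It was the only one of 17 HOX antisense genes that could be tied to a transcript.

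Of 39 HOX genes, 14 could be tied to transcripts, and the rest were not analysed here. As above, only genes that the study had called were in the part of its table used, so counts over tied genes describe a selection. HOXB3 apart, a gene was also tied only if a single transcript matched its mean count, and 1491 of the 1998 genes had no such match. A gene left untied, here and below, may thus still have been called by the study. The 11 tied HOX genes besides the 3 come from HOXA5 to HOXA9, HOXB5 to HOXB9, HOXC8 to HOXC10 and HOXD9, which lie farther toward the spinal cord end of their clusters. They averaged 2.57 to 42.4 TPM in the IPs, and had at most 0.65 TPM and 45 reads in the input. In the input every one of them was thus below HOXB3, the lowest of the 3 anterior genes at 1.87 TPM. Of the 11, 4 had no input read, 2 had 1 to 3 and 5 had more.

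The 3 anterior genes together were at 174, 175 and 153 TPM in the IPs, against 47.8 TPM in the input. The 11 other HOX genes summed to 174, 179 and 154 TPM in the IPs, against 1.87 TPM in the input. The anterior genes therefore made up 50.01%, 49.43% and 49.75% of the TPM of the 14 genes in the IPs, against 96.24% in the input. HOXA2 alone was 12.6%, 15.2% and 17.6% in the IPs, against 58.5% in the input. HOXB2 held a similar share throughout, 33.0%, 30.2% and 28.5% in IP 1, IP 2 and IP 3 and 34.0% in the input. These are shares of the tied genes, not of all HOX genes.

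HOXA9, a gene active in trunk and blood cells, was at 39.2, 41.9 and 38.7 TPM in the IPs, against 0.157 TPM in the input, a level in the IPs near that of HOXA2. HOXB9 was at 50.2, 44.1 and 32.8 TPM in the IPs, against 0.65 TPM in the input. HOXA7 had 771 to 846 reads in the IPs and no read in the input, so in TPM it was at least 234-fold higher in the IPs against a floor of 3 reads in that library. HOXB5 also had none in the input, and was at least 126-fold higher. Both bounds rest on the single input library, and what part of them comes from the pull-down was not tested.

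The median log2 fold change in edgeR was 2.94 over the 3 anterior genes and 8.31 over the 11 others. It was 0.10 over all features tested and 1.09 over the 492 tied genes. With the 4 genes without input reads at their bound the median of the 11 was 6.84. That bound is a log2 ratio of TPM, so this median mixes 2 scales. Of the 11 others, 9 were called higher and 2, HOXA6 and HOXD9, missed the threshold. Their lowest log2 fold change, 4.45 for HOXD9, was above the 3.17 of HOXB3, the highest of the anterior genes. The difference between the 2 sets of genes was not tested, since it rests on the same single input.

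**Figure D4:**
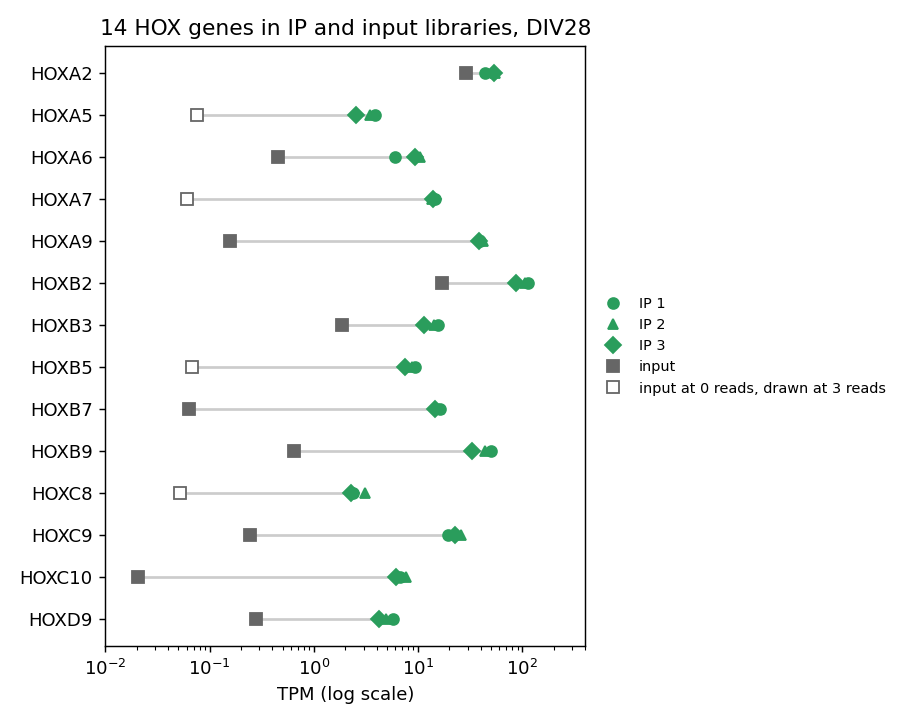
TPM of the 14 tied HOX genes in the 3 IPs (green) and the input (grey squares) at DIV28, on a log axis. Open squares are genes without a read in the input, drawn at the TPM of 3 reads. HOXA2, HOXB2 and HOXB3 are the only rows with the input above 1 TPM, at 29.1, 16.9 and 1.87, while the other 11 are at 0.65 TPM or less.

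HOX proteins act with TALE homeodomain cofactors of the PBX and MEIS families, but none of the 11 cofactors listed could be tied. Of 26 regulators of anterior-posterior position only TSHZ1, a zinc finger gene related to the fly trunk gene teashirt, was tied. It was at 11.7, 10.6 and 7.57 TPM in the IPs, against 3.22 TPM in the input. Its log2 fold change was 1.95 at an adjusted p of 0.0585 in edgeR. Retinoic acid, made from vitamin A, is a known inducer of anterior HOX genes, and the B27 supplement used lacked it. Of 19 genes of that pathway only CRABP1, which encodes a retinoic acid binding protein, was tied. It was called higher, at 10502, 12046 and 10438 TPM in the IPs, against 748 TPM in the input (log2 fold change 4.21).

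HOXA2 and the HOXB pair differed in which genes resembled them over the 4 libraries. Likeness was the Euclidean distance between log2 CPM values after each gene's mean was subtracted, among 481 other tied genes, and it is a description of 4 points that are mostly set by the input. The genes nearest to HOXA2 were EAPP, TRMT112 and RPL36AL, at distances of 0.0811, 0.091 and 0.119. RPL36AL encodes a ribosomal protein and TRMT112 a partner of methyltransferases, and both are active in most cells. HOXB2 and HOXB3 ranked only as number 261 and 287 for HOXA2, at distances of 1.64 and 1.84.

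The nearest to HOXB2 were UBE2QL1, POU3F1 and RASD1, at 0.0829, 0.104 and 0.18, and HOXB3 ranked as number 5 at 0.203. The nearest to HOXB3 were UBE2QL1, ADRA1D and POU3F1, at 0.16, 0.179 and 0.187, followed by HOXB2. POU3F1 encodes a POU-domain transcription factor of neural and Schwann cells, and was at 4.83, 4.22 and 3.75 TPM in the IPs, against 0.679 TPM in the input.

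Tied markers of granule cell progenitors and rhombic lip were higher in the IPs, and tied markers of other cells moved in both directions. The tied granule cell progenitor and rhombic lip genes were ATOH1, BARHL1, NHLH1 and OLIG3, 4 of 14. They summed to 78.3 to 96.7 TPM in the IPs, against 0.969 TPM in the input. All 4 were called higher, as were 1.95% of all features tested and 29.3% of the tied genes. Only genes that the study had called could be tied, so this count describes a selection. Of 15 neural crest and mesenchyme genes only SNAI2 was tied, a regulator of neural crest migration. It was lower in the IPs, at 121 to 125 TPM against 299 TPM in the input (log2 fold change -0.94). Of 11 roof plate and choroid plexus genes 3 were tied. MSX1 and WNT1 were called higher and MSX2 lower, and the 3 summed to 359 to 502 TPM in the IPs, against 511 TPM in the input. None of 11 endothelial and 5 pluripotency genes was tied. The part of other cells in the levels of HOXA2, HOXB2 and HOXB3 was not tested, and in bulk RNA fewer cells of a type and less RNA per cell cannot be told apart.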

How the data were processed

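Single 75-base reads from SMART-Seq v4 and Nextera XT libraries were quantified by the authors with Salmon 0.8.2 against hg19 UCSC known gene transcripts. The authors deposited the estimated counts and TPM of Salmon for 69548 transcripts in each of 4 libraries, and replicates were not pooled. The authors derived gene values with tximport and DESeq2 1.20.0. The files name no gene. Transcripts were tied by mean count to 1998 genes of the study's table, whose fold changes and p-values were not used. Library scale factors were started on 7 single-transcript HOX genes, HOXA2 included, and refitted with transcripts matching genes of high mean count. The match of HOXA2 to its own mean count is thus partly built in. The GENCODE place of each gene limited which transcripts were compared with it. This tied 492 genes, each by a single transcript except HOXB3, which was a run of transcripts placed between HOXB2 and HOXB5. Of the 1998 genes, 1491 had no matching single transcript. Mean counts of HOXA2 and HOXB2 matched no other transcript.

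Tied genes were summed, other transcripts kept single, and estimated counts rounded. edgeR 4.0.16 (R 4.3.3) was used with TMM, filterByExpr (minimum count 10), the quasi-likelihood test and Benjamini-Hochberg adjustment. The standard error is the log2 fold change over the root of F. Alternatives were median-ratio scaling, limma-voom (limma 3.58.1), DESeq2 1.42.0, a length offset in edgeR or DESeq2, other filters, single transcripts, TPM ratios, left-out IPs and the labels' assignment. The functions were tested on simulated counts. Genes named were the members, ATOH1, tied genes of fixed lists and the 3 nearest profiles. Members and lists were chosen with earlier results of these data known. Homeoboxes were found by their WFQNR codons in GENCODE v44 coding sequence.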

Additional observations from a re-analysis of the deposited data

How the results depend on the processing

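HOXA2, HOXB2 and HOXB3 had positive log2 fold changes under each alternative run with the input as assigned here, where uc010wlk.2 stands for HOXB3 among single transcripts (uc010dbg.3, a low one, was at -0.89). With the labels' assignment HOXB2 turned to -0.65 and HOXB3 to -0.70 on the log2 scale, HOXA2 was at 0.07 and 0 genes and transcripts were called, against 1425 in the edgeR fit. DESeq2, with and without a length offset, put HOXA2 past the threshold at 1.09 and called 10568 and 10537 genes and transcripts. limma-voom put HOXB2 (2.94) and HOXB3 (3.16) short of it and called 0, with 11084 at an unadjusted p under 0.05. A minimum of 50 counts in 2 libraries raised the calls to 2802. The log2 ratio of TPM was 0.80 for HOXA2, 2.61 for HOXB2 and 2.87 for HOXB3. Its median over 41753 features was -0.34, relative to which the 3 were at 1.14, 2.95 and 3.21. With 1 IP left out, edgeR gave 1.04 to 1.26 for HOXA2, 2.889 to 3.001 for HOXB2 and 3.10 to 3.24 for HOXB3, with 0 calls each time and 7172 to 8567 at an unadjusted p under 0.05. The other run of transcripts for HOXB3 was chosen after seeing the data and kept its call. Adjusted p ran up to 1.0 for each gene, only with the labels' assignment in edgeR. It ran down to 3.0e-61 for HOXB2 and 1.7e-30 for HOXB3 with DESeq2. The cause of these differences was not tested. No paired analysis was possible because there is 1 input library. The single input limits all 3 ratios.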
